A study of Homo sapiens with 21 samples.

Results

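The 39 genes described here encode extracellular matrix proteins, the proteases and inhibitors that remodel the matrix, and the receptors that hold cells to it. They were taken as a list by gene symbol, and the rule itself uses no measured value. Of the 39, 38 had a probe set assigned to 1 symbol in the platform annotation, among 18132 such genes, and 37 passed the filter on dim genes, among 12644. LAMA3, a chain of the epithelial laminins, was not analysed here, and the collagenase gene MMP1 had a level in every group but was too dim to be tested.

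The levels come from 21 PrimeView 3' expression arrays of 4 human breast cancer cell lines, each treated for 6 h with DMSO, the vehicle, or with 50 or 250 nM THZ1, a covalent inhibitor of the transcriptional kinase CDK7. MDA-MB-468 and BT-549 are triple-negative, lacking oestrogen and progesterone receptors and HER2 amplification, ZR-75-1 is labelled oestrogen receptor positive (ER+) and T47D oestrogen and progesterone receptor positive. Each dose was run on 2 arrays, except in BT-549, where it was run on 1, so BT-549 carries no test. Lines named in a row below keep the order MDA-MB-468, then ZR-75-1, then T47D, unless said otherwise. The labels do not say whether the arrays of a group came from separate cultures, so the p-values reflect only how far these arrays differ, and that may be technical. Cells were grown in medium with serum, and a fixed mass of total RNA, spiked with ERCC RNA by cell number, was amplified from oligo(dT).

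The matrix is a mesh of collagens, laminins and fibronectin that cells secrete and then grip through integrins, paired alpha and beta chains that cross the membrane and couple to the cytoskeleton. Carcinoma lines of luminal type usually make little interstitial collagen, while lines with mesenchymal features make collagens, SPARC and lysyl oxidases in quantity. Secreted proteases cut the mesh: urokinase (PLAU), bound to its receptor PLAUR, activates plasminogen, and metalloproteases cut collagens and proteoglycans, with the TIMPs as their inhibitors.

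Across the arrays the mean intensity lay between 326 and 343. The 2 arrays of a group correlated at 0.994 to 0.997 over the genes tested, and no member differed 2-fold between them. For both ER+ lines the label's source name gives MDA-MB-468, so groups follow the titles and the cell line entries. The luminal markers fitted those entries: under DMSO the oestrogen receptor gene ESR1 averaged 906 in T47D, 442 in ZR-75-1, 30.9 in MDA-MB-468 and 18.5 in BT-549. The fibroblast list (4 genes) had a median log2 level of 4.29 to 5.03 on every array, at the level of the background probes. Probe sets for the ERCC spike-in are not used here, so values are not per cell, and fewer cells cannot be told apart from less RNA per cell.

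THZ1 lowered few of these genes. Of the 37 tested members, 250 nM lowered 6 in MDA-MB-468, 7 in ZR-75-1 and 2 in T47D, where lower or higher means a Benjamini-Hochberg adjusted p under 0.05 in limma's fit over all genes. The same fit called 30.3%, 42.8% and 33.7% of all genes tested lower, against 16.2%, 18.9% and 5.41% of the members. Members higher numbered 0, 3 and 5, against 9.54%, 9.93% and 9.62% of all genes, and 1 was higher in MDA-MB-468 at an unadjusted p under 0.05. The T47D count was 3 without 250 nM replicate 2. The ZR-75-1 count lower was 4 with arrays centred on the median or scaled to equal quantiles. The median change of the members was -0.02, 0.04 and 0.12 on the log2 scale, beside -0.07, -0.18 and -0.08 over all genes. At 50 nM, 5 members were lower in MDA-MB-468 (14.6% of all genes), 1 in ZR-75-1 (5.68%) and 1 in T47D (7.56%), and none was higher in limma's fit (background 4.42%, 2.79% and 1.99%), with 1, 4 and 0 higher at an unadjusted p under 0.05.

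Many members sit near background in one line or another, where a fall cannot be seen. Among members above the 75th percentile of the background probes on both DMSO arrays of a line, 250 nM lowered 6 of 26 in MDA-MB-468, 7 of 22 in ZR-75-1 and 2 of 20 in T47D. The same restriction over all genes gave 34.8%, 49.6% and 38.5% lower, against 23.1%, 31.8% and 10% of the members. At 50 nM in MDA-MB-468 the order was the other way, with 19.2% of these members lower against 16.6% of all genes. Which values count as higher depends on how arrays are scaled: the median of all genes at 250 nM moved from -0.07, -0.18 and -0.08 to 0.14, 0.08 and 0.05 when each array was centred on its median, and members higher then numbered 8, 12 and 11. Scaling to equal quantiles gave 6, 17 and 14.

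On the probe sets used for the genes, 23 of the 37 tested members passed the test in none of the 6 comparisons with DMSO. Among them were all 8 collagens, FN1, SPARC, TNC, LAMB1, LAMC1, both lysyl oxidases, MMP2, MMP14, CD44 and 5 of the 8 integrins. With every probe set fitted, some of these genes had probe sets called at 250 nM in MDA-MB-468. Higher were 5 of 6 for FN1, 5 of 10 for CD44 and 1 of 4 for LAMC1, and lower was 1 of 4 for MMP14. COL1A2, COL3A1, COL4A1, MMP2 and ITGA5 passed the filter on dim genes only through BT-549. The lack of a call for them in the tested lines therefore says little. Only NEDD9 and THBS1 were lower at 250 nM in all 3 tested lines. The plot of changes sets every tested member side by side.

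**Figure D1:**
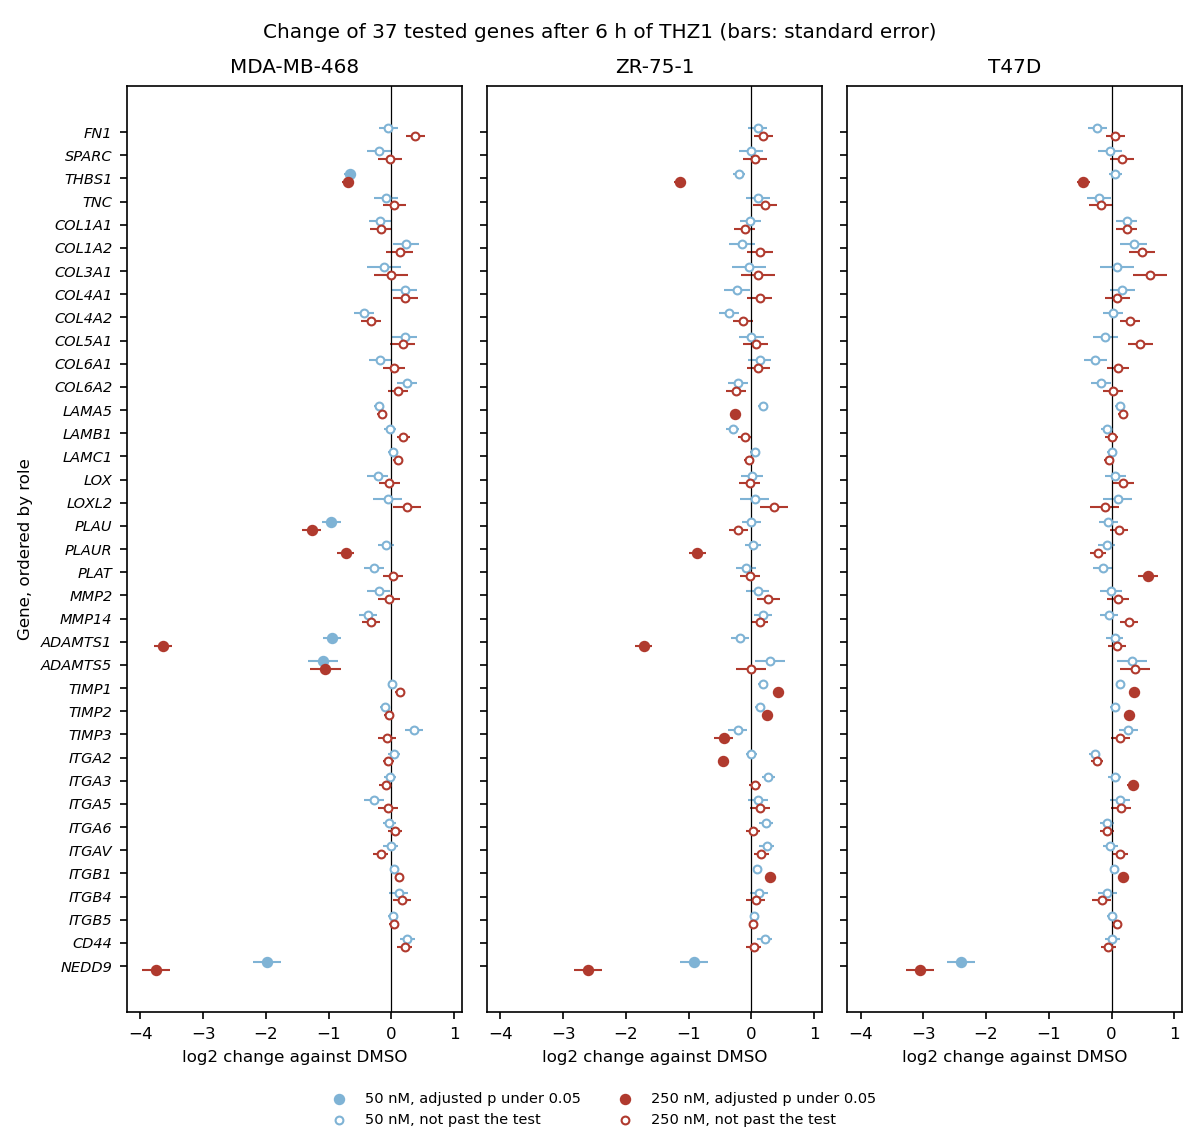
Change in log2 intensity against DMSO (horizontal axis) of the 37 tested genes at 50 nM (blue) and 250 nM (red) in the 3 replicated lines, with 2 arrays per group and bars of 1 standard error. Filled points passed limma's test at an adjusted p under 0.05; NEDD9 lies far to the left in every line, ADAMTS1 in MDA-MB-468 and ZR-75-1, and most other genes lie near 0.

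Before treatment the lines differed widely in these genes. A probe set was counted as above background where every DMSO array exceeded the mean log2 level of that array's 23 background probe sets, an intensity of 23.5 to 31.4. By this rule 33 of the 38 members were above background in MDA-MB-468, 32 in ZR-75-1, 30 in T47D and 37 in BT-549, beside 80.7%, 78.5%, 81.5% and 81.7% of all 18132 genes. Below it were COL1A2, COL3A1, COL4A1 and MMP1 in all lines but BT-549, COL5A1 in MDA-MB-468 and T47D, TNC in ZR-75-1, LOXL2 and TIMP3 in T47D, and ADAMTS5 in ZR-75-1, T47D and BT-549. The background probes span a range of base compositions, and against their 75th percentile (54.8 to 70.4) the numbers fell to 26, 22, 20 and 31.

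By the stricter measure, on the probe sets used, 15 members were above background in all 4 lines: FN1, THBS1, COL6A1, LAMA5, LAMC1, LOX, PLAUR, TIMP1, TIMP2, CD44 and the integrin genes ITGA3, ITGA6, ITGAV, ITGB1 and ITGB5. The COL6A1 probe set brightest in any group read 689.3 in BT-549, 17.41 and 12.12 in MDA-MB-468 and 37.16 to 56.63 in the ER+ lines under DMSO. That of LOX read 32.43 to 40.32 in the ER+ lines, so neither gene was above the measure in all 4 lines there. On the probe sets used, another 8 were above it only in BT-549: SPARC, COL1A2, COL3A1, COL4A1, COL4A2, PLAT, MMP2 and ITGA5. The COL4A2 probe set that is brightest in any group read 72.44 and 83.45 in MDA-MB-468, above the measure. MMP1 was above it in no line. TNC, an adhesion-modulating glycoprotein, was above it in MDA-MB-468, with intensities of 229 and 245 under DMSO, and between 21.95 and 45.28 in the other lines. The plot of levels shows both patterns.

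**Figure D2:**
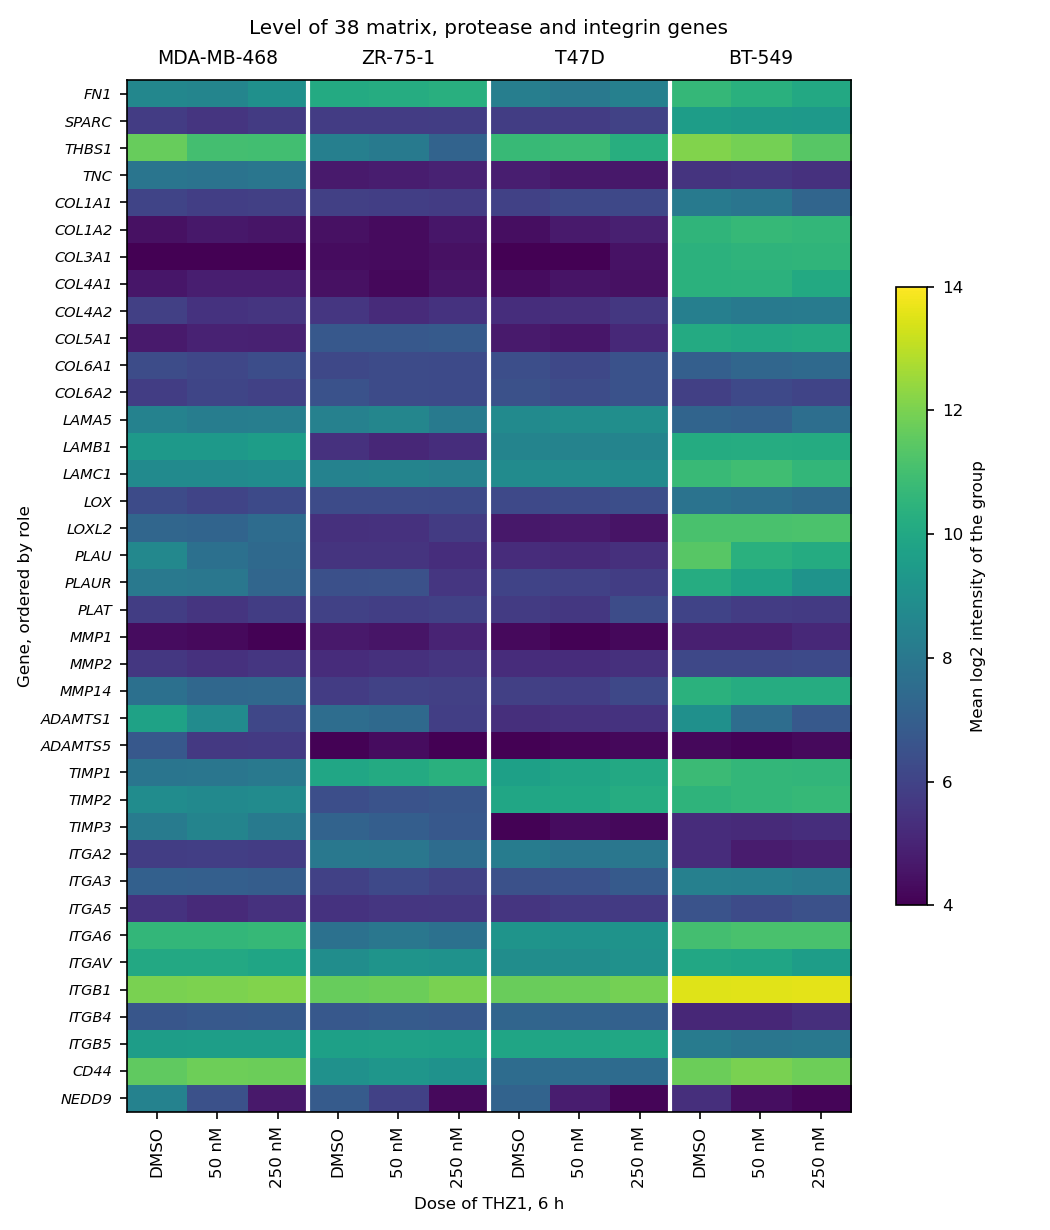
Mean log2 intensity (colour) of the 38 genes with a probe set, ordered by role from matrix glycoproteins to adhesion receptors, in 4 lines at 3 doses. Each cell is the mean of 2 arrays, or 1 array in BT-549; COL1A2, COL3A1, COL4A1, COL5A1, SPARC and LOXL2 are bright in BT-549 at every dose, and levels should be read along a row, since probe sets differ in brightness.

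On the probe sets used, BT-549 had the highest DMSO level of 7 of the 8 collagens. The exception was COL6A2, a chain of microfibrillar collagen, at 59.2 in BT-549 and 85.52 to 96.98 in the ER+ lines. On the COL6A2 probe set brightest in any group the order differed, with 84.18 in BT-549 and 50.03 to 73.73 in the other lines. COL3A1, a fibrillar collagen, read 1361 in BT-549 under DMSO and 13.8 to 21.1 on the 6 DMSO arrays of the other lines. COL1A2, the second chain of type I collagen, read 1482 against 18.2 to 25.5, and COL4A1, of basement membrane collagen, 1324 against 18.8 to 24.8. Their passage through the filter rests on BT-549, and in the other lines they lay at background, where a fall cannot be measured. MMP2 and ITGA5 also passed the filter only through BT-549, and lay below the stricter background measure in the other lines. SPARC, a collagen-binding glycoprotein, read 754 on the probe set used for the gene, and 4536 on its brightest probe set, against 15.1 to 23.6 in the other lines on the latter. LOX, which crosslinks collagen, read 225 on the one and 2329 on the other, against 32.4 to 94.0 in the other lines on the latter. Choosing the brightest probe set in any group instead changed the probe set of 10 of the 38 members.

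Among the replicated lines, MDA-MB-468 had the higher DMSO level of most members that differed. Against ZR-75-1, 18 members were higher (35.5% of all genes) and 5 lower (30.5%), and against T47D 17 were higher (30.9%) and 7 lower (36.8%). ZR-75-1 against T47D gave 8 higher (25.9%) and 10 lower (37.1%). CD44, the hyaluronan receptor, showed the order most plainly: 2732 and 3242 in MDA-MB-468, 496.5 and 562.8 in ZR-75-1, 186.6 and 186.8 in T47D, and 3469 in BT-549. The groups did not overlap, and all 3 differences passed the test: on the log2 scale MDA-MB-468 exceeded ZR-75-1 by 2.49 (adjusted p = 3.65e-11) and T47D by 3.99 (adjusted p = 1.04e-13).

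Other members split the ER+ lines. TIMP2, a metalloprotease inhibitor, read 949 and 958 in T47D but 81.7 and 88.3 in ZR-75-1, a difference of -3.49 (adjusted p = 3.27e-15). LAMB1, a laminin beta chain, read 357 and 385 in T47D and 42.95 and 42.64 in ZR-75-1, below the stricter background measure. FN1, fibronectin, ran the other way, with 1154 and 1065 in ZR-75-1 against 304.5 and 317.7 in T47D. The collagen-binding integrin chain ITGA2 was bright in both ER+ lines, at 241 to 314, and lay at 53.9 and 60.0 in MDA-MB-468 and 38.01 in BT-549.

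NEDD9, a scaffold of the Cas family that joins integrins to focal adhesion kinase and Src, fell in every tested line. Under DMSO it read 305 and 402 in MDA-MB-468, 129 and 106 in ZR-75-1 and 159 and 136 in T47D. At 50 nM it read 92.5 and 85.5, 50.8 and 75.7, and 28.6 and 27.2, and at 250 nM 25.9 and 26.0, 17 and 21.82, and 14.4 and 21.9. Treated arrays lay below the DMSO arrays in all 3 lines, and no 250 nM array was above background. The fitted changes at 250 nM were -3.75 ± 0.22 (SE; adjusted p = 7.70e-10), -2.60 ± 0.22 (adjusted p = 3.00e-08) and -3.05 ± 0.22 (adjusted p = 1.34e-08). Since the treated arrays lay at background, these correspond to falls of at least 12.5-fold, 3.93-fold and 5.19-fold, measured against the background level of each array.

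At the lower dose the change in NEDD9 was -1.98 in MDA-MB-468 and -2.40 in T47D, and -0.92 (adjusted p = 0.0152) in ZR-75-1. The call in ZR-75-1 was lost without DMSO replicate 1 (-0.78, adjusted p = 0.119) or without 50 nM replicate 1 (-0.63, adjusted p = 0.172). From 50 to 250 nM NEDD9 was called lower in all 3 lines, with fitted changes of -1.78, -1.69 and -0.65 (adjusted p = 0.0311). Their size is uncertain, since the 250 nM arrays lay below background. In T47D the 50 nM arrays, at 28.55 and 27.21, also lay close to background, so the size of -2.40 is uncertain as well. The T47D call between doses was lost without 50 nM replicate 1 (-0.61), 50 nM replicate 2 (-0.68) or 250 nM replicate 1 (-0.35). It was also lost with the mean of probe sets (-0.21, adjusted p = 0.215). All 3 measured probe sets of NEDD9 fell at 250 nM in the 3 lines, with changes from -3.75 to -0.99. BT-549 had little NEDD9 to lose, with 40.6 under DMSO, 20.98 at 50 nM and 17.52 at 250 nM, the last a fall of at least 1.46-fold.

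The relatives of NEDD9 were examined through a list of adhesion adaptors and other matrix receptors, of which 24 of 28 were tested. At 250 nM 6 were lower and 1 higher in MDA-MB-468, 8 and 0 in ZR-75-1 by limma's test (1 higher at an unadjusted p under 0.05), and 7 and 1 in T47D. Over all genes tested 30.3%, 42.8% and 33.7% were lower and 9.54%, 9.93% and 9.62% higher. The median changes of the list were -0.15, -0.06 and -0.03, beside -0.07, -0.18 and -0.08 over all genes. EFS, another Cas family scaffold, read 151 and 151 under DMSO and 64.5 and 60.0 at 250 nM in MDA-MB-468, and 358 and 315 against 75.2 and 87.8 in T47D. Its changes were -1.28 ± 0.12 and -2.05 ± 0.12, and in ZR-75-1 -2.08 ± 0.12, where the treated arrays lay below background. BCAR1, the founding Cas protein, changed by -1.30, -1.34 and -0.41, and the tensin TNS3, which links integrins to actin, by -0.56, -1.84 and -0.95. All 6 of these changes passed the test, the weakest being BCAR1 in T47D (adjusted p = 0.0445). In BT-549 BCAR1 read 471, 387 and 309 over the 3 conditions and TNS3 1321, 1170 and 1213, with EFS at background.

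ADAMTS1, a secreted metalloprotease that cuts proteoglycans and also binds angiogenic growth factors, fell where it started above the stricter background measure. In MDA-MB-468 it read 852 and 897 under DMSO, 444.5 and 461.6 at 50 nM and 72.0 and 68.4 at 250 nM, a change at 250 nM of -3.64 ± 0.14 (12.4-fold; adjusted p = 1.11e-11). In ZR-75-1 it read 203 and 182, then 172 and 167, then 56.0 and 61.0, a change of -1.72 ± 0.14 (3.29-fold; adjusted p = 3.39e-08). In BT-549 the 3 arrays read 516, 193 and 111, which is 4.67-fold lower at 250 nM. T47D had 34.0 and 49.7 under DMSO, below the stricter background measure, and 39.6 and 48.5 at 250 nM.

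No DMSO array overlapped with a 250 nM array in MDA-MB-468 or ZR-75-1. The change at 250 nM was more negative in MDA-MB-468 than the mean of the ER+ lines by -2.82 ± 0.18 (adjusted p = 8.24e-08), and more negative in ZR-75-1 than in T47D by -1.81 ± 0.20 (adjusted p = 1.08e-05), with the T47D level near background in both comparisons. The second ADAMTS1 probe set gave -1.58 in MDA-MB-468 and a smaller fall in ZR-75-1 as well. In T47D it gave 0.39 at 250 nM and was called higher.

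ADAMTS5, an aggrecan-cutting relative, was above background only in MDA-MB-468. There it read 110 and 104 under DMSO, 52.2 and 48.6 at 50 nM and 51.5 and 52.1 at 250 nM. The changes were -1.09 ± 0.24 (adjusted p = 0.00441) and -1.05 ± 0.24 (adjusted p = 0.00221), and the 50 and 250 nM arrays overlapped. Of the other metalloproteases, MMP14, the membrane-anchored enzyme that activates pro-MMP2, read 200 and 215 in MDA-MB-468 under DMSO and 159 and 175 at 250 nM, a change of -0.32 that missed the test. MMP2 was not above the stricter background measure in the tested lines and MMP1 in none of the 4. In BT-549 MMP14 read 1327, 1188 and 1167.

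Of the urokinase system, PLAU fell in MDA-MB-468, the 1 tested line with it above the stricter background measure, PLAUR fell in MDA-MB-468 and ZR-75-1 but not by test in T47D, and PLAT fell in none of the 3. PLAU read 413 and 405 in MDA-MB-468 under DMSO, 222 and 198 at 50 nM and 176 and 164 at 250 nM, with no overlap between doses. The changes were -0.96 ± 0.15 (1.95-fold; adjusted p = 0.000271) and -1.27 ± 0.15 (2.41-fold; adjusted p = 3.48e-06). In BT-549 PLAU read 2717, 1318 and 1151, which is 2.06-fold lower at 50 nM and 2.36-fold lower at 250 nM, and its 3 probe sets there changed by -1.36 to -1.22. ZR-75-1 and T47D had PLAU at 36.3 to 47.7 under DMSO, below the stricter background measure, and no change there passed the test on the probe set used. With every probe set fitted, 1 of the 3 for PLAU was called higher in T47D at 250 nM, with changes from 0.12 to 0.52. On the probe set used, the change at 250 nM was more negative in MDA-MB-468 than the mean of the ER+ lines by -1.22 ± 0.18 (adjusted p = 0.000265).

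PLAUR, the urokinase receptor, responded at 250 nM. It read 249 and 280 under DMSO, 272 and 226 at 50 nM and 147 and 172 at 250 nM in MDA-MB-468, and 83.98 and 92.53, 85.66 and 92.98, and 44.8 and 52.65 in ZR-75-1. The changes at 250 nM were -0.73 ± 0.13 (adjusted p = 0.000329) and -0.86 ± 0.13 (adjusted p = 3.98e-05), while at 50 nM both lines overlapped with DMSO. BT-549 read 1160, 869 and 556. T47D read 58.8 and 71.9 under DMSO and 56.6 and 54.9 at 250 nM, a change of -0.22 that missed the test. The 5 PLAUR probe sets ranged from -0.78 to 0.09 in MDA-MB-468 and from -0.86 to 0.24 in ZR-75-1, so the size of the fall depends on the probe set.

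PLAT, tissue plasminogen activator, was near background in the tested lines and was called higher in T47D at 250 nM, at 46.4 and 61.7 against 80.2 and 79.3 (0.58 ± 0.16, adjusted p = 0.00752). The call was lost without T47D DMSO replicate 1 (0.37, adjusted p = 0.125), and the PLAT probe set that is brightest in any group gave -0.08. In BT-549 that probe set read 118.5 under DMSO, 55.3 at 50 nM and 29.4 at 250 nM, while the probe set used for the gene read 64.8, 55.3 and 51.4.

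**Figure D3:**
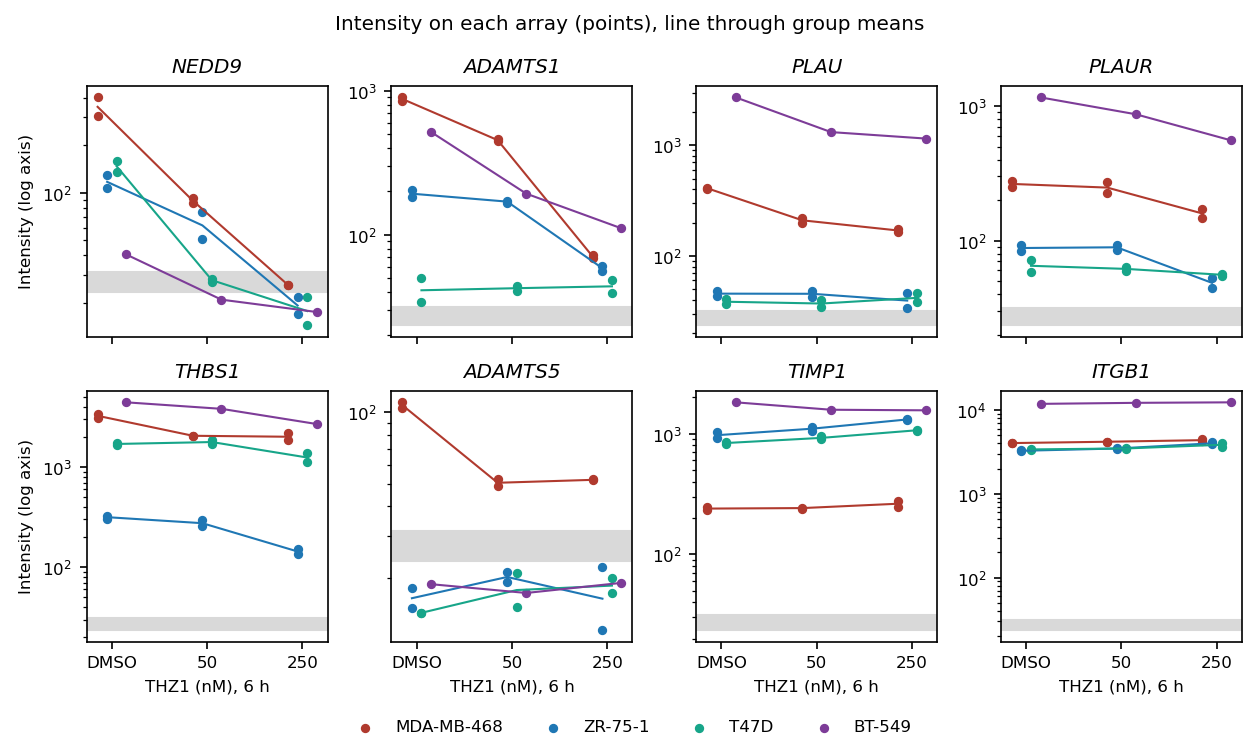
Intensity on each array (log axis) at DMSO, 50 and 250 nM THZ1 for 8 genes, with a line through the group means (geometric) of each cell line and a grey band for the range of the arrays' mean background (23.5 to 31.4). NEDD9 reaches the band at 250 nM in every line, ADAMTS1 falls in the 3 lines that start above 100, PLAU falls in MDA-MB-468 and, in value, in BT-549, TIMP1 rises in the ER+ lines and is lower in value in BT-549, and ITGB1 rises in the ER+ lines on the probe set plotted.

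THBS1, thrombospondin 1, a matrix glycoprotein that activates TGF-beta and inhibits angiogenesis, was lower at 250 nM in the 3 tested lines. It read 3124 and 3383 under DMSO, 2048 and 2059 at 50 nM and 1854 and 2175 at 250 nM in MDA-MB-468, with the treated doses overlapping (-0.66 ± 0.10, and -0.69 ± 0.10 at 250 nM, adjusted p = 3.39e-05). In ZR-75-1 it read 327 and 306, then 294 and 257, then 151 and 136.5, a change at 250 nM of -1.14 ± 0.10 (2.20-fold; adjusted p = 6.85e-08). In T47D it read 1739 and 1664 under DMSO and 1130 and 1374 at 250 nM (-0.45 ± 0.10, adjusted p = 0.00184), with no overlap.

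The fall was larger in ZR-75-1 than in T47D by -0.69 ± 0.14 (adjusted p = 0.00229). The 5 probe sets of THBS1 differed: at 250 nM they ranged from -0.86 to -0.06 in MDA-MB-468, from -1.14 to 0.63 in ZR-75-1 and from -0.45 to 0.46 in T47D. The mean of the probe sets gave 0.00 in T47D, so that the call there rests on the choice of probe set. BT-549 read 4430, 3815 and 2690.

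**Figure D4:**
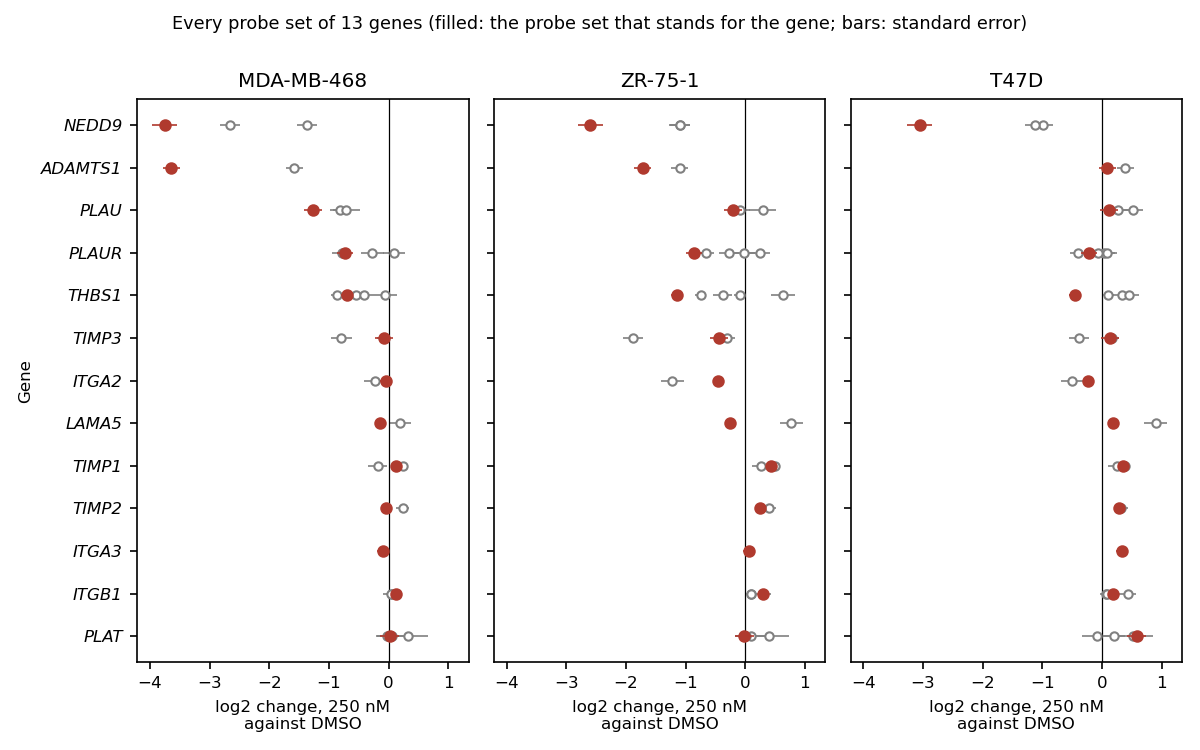
Change in log2 intensity at 250 nM against DMSO (horizontal axis) of every measured probe set of 13 genes in the 3 replicated lines, with bars of 1 standard error; filled points are the probe sets that stand for the gene. The probe sets of NEDD9 and ADAMTS1 differ in size but share a negative sign in MDA-MB-468 and ZR-75-1, while those of THBS1, PLAUR and LAMA5 differ in sign in ZR-75-1.

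The sequences before the start sites of 4 genes that fell are shown because, of the members called lower at 250 nM that the promoter table lists, these fell by the most. They are the 250 bases before the start, 5' to 3', from RefSeq on GRCh38.p14: NEDD9 at chr6:11232669-11232918, minus strand, the third of 3 listed starts; PLAU at chr10:73910882-73911131, plus strand, the second of 2; PLAUR at chr19:43670170-43670419, minus strand; and THBS1 at chr15:39580829-39581078, plus strand. Capitals mark the motifs searched on both strands. These were the letters TGACTCA, a site known for AP-1 factors, the letters GGAATG, known for TEAD factors, the letters GGGCGG, known for SP1, and the TATA box letters TATAAA. None of them contains another.
NEDD9: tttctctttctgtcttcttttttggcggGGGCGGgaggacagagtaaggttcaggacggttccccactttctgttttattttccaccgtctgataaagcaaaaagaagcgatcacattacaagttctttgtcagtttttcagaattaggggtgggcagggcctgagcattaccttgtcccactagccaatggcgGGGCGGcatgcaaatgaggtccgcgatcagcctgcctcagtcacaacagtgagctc
PLAU: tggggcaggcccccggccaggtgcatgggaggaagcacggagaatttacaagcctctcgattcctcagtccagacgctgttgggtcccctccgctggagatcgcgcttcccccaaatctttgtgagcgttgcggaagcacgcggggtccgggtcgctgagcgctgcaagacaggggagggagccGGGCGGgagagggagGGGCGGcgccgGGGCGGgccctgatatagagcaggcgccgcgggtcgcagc
PLAUR: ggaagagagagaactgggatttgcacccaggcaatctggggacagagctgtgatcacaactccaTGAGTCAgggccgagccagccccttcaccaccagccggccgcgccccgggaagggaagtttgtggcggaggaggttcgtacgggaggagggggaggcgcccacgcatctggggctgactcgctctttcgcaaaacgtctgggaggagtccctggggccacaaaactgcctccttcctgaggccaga
THBS1: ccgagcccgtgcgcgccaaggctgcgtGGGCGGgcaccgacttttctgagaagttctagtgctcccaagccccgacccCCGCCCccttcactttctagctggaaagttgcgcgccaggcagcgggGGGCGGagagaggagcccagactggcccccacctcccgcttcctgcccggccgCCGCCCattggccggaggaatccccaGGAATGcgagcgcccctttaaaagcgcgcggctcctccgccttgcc
These letters are a description and not evidence of binding. For NEDD9 and PLAU the start shown is the 1 whose window held a searched motif, and the other listed starts held none. The NEDD9 window held GGGCGG at 222 and 56 bases before the start and the PLAU window at 66, 51 and 40. The PLAUR window held the AP-1 letters once, at 186 bases, and no other motif. The THBS1 window held GGAATG at 46 bases and GGGCGG or its complement at 223, 172, 125 and 72. Promoters were listed for 26 of the 39 genes, with 37 start sites of 300 bases each: 8.11% held the AP-1 letters, 10.8% GGAATG, 73% GGGCGG and 8.11% TATAAA. Among all 35116 start sites in the table the shares were 4.95%, 14%, 45% and 11.5%.

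The other matrix glycoproteins, collagens and laminins gave few calls. No collagen passed the test in any comparison with DMSO, with changes at 250 nM from -0.33 to 0.22 in MDA-MB-468, -0.25 to 0.14 in ZR-75-1 and 0.02 to 0.61 in T47D, most of them at background. At an unadjusted p under 0.05 stood COL4A2 (-0.43 in MDA-MB-468 and -0.36 in ZR-75-1 at 50 nM) and, in T47D at 250 nM, COL1A2 (0.49), COL3A1 (0.61) and COL5A1 (0.46). None of the probe sets used for these was above the stricter background measure in that line under DMSO. FN1 in MDA-MB-468 read 347.5 and 444.6 under DMSO, 369 and 392 at 50 nM and 469 and 556 at 250 nM. Its rise from 50 to 250 nM passed the test (0.42 ± 0.15, adjusted p = 0.0466), the single member higher in that comparison (background 5.73%), but was lost without 250 nM replicate 2 (0.30, adjusted p = 0.273) or without either 50 nM array (adjusted p = 0.193 and 0.105). Against DMSO the FN1 change of 0.38 missed the test (adjusted p = 0.0594). With every probe set fitted, however, 5 of the 6 FN1 probe sets tested were called higher there at 250 nM, with changes from 0.28 to 0.40. LAMB1 and LAMC1, which pair in most laminins, changed by -0.11 to 0.19 at 250 nM, with no 95% interval reaching beyond -0.32 or 0.40.

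LAMA5, the laminin alpha 5 chain, was called lower in ZR-75-1 at 250 nM, from 324 and 351 to 286 and 277 (-0.26 ± 0.08, adjusted p = 0.0125). The second LAMA5 probe set changed by 0.77 there, the mean of probe sets gave 0.26, and the call was lost without DMSO replicate 2 (-0.20, adjusted p = 0.106) or without 250 nM replicate 2 (-0.24, adjusted p = 0.0671). Its direction in ZR-75-1 therefore differs between probe sets.

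In BT-549 several matrix genes read alike over the 3 conditions and others were lower in value, with 1 array each. COL1A2 read 1482, 1669 and 1592 under DMSO, 50 and 250 nM, COL3A1 1361, 1468 and 1478, COL5A1 1108, 1022 and 1082, and LOXL2 2227, 2244 and 2297. SPARC read 754, 698 and 681. THBS1 was lower in value, at 4430, 3815 and 2690, as was LOX on its brightest probe set, at 2329, 1884 and 1470. FN1 and COL1A1 were lower too, at 1631, 1290 and 1038 and at 278, 235 and 153, and the 6 FN1 probe sets above background changed by -0.71 to -0.57 at 250 nM while the 5 of COL1A1 changed by -0.87 to -0.15.

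At least 2-fold lower in BT-549 were ADAMTS1 and PLAU at 50 nM, 2 of 37 members against 3.24% of all genes. At 250 nM they were ADAMTS1, PLAU and PLAUR, and in measured value NEDD9, which makes 4 of 37 against 8.94%. The NEDD9 array lay below background, so only its bound of 1.46-fold is supported. None was 2-fold higher at either dose, against 0.174% and 0.182% of all genes. With 1 array per dose these differences have no replicate check.

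Among the inhibitors of metalloproteases, TIMP1 and TIMP2 were called higher in both ER+ lines, and TIMP3 was called lower in ZR-75-1. On the probe sets used for the genes, none of the 3 TIMPs passed the test at 250 nM in MDA-MB-468 (nor an unadjusted p of 0.05). With every probe set fitted, 1 of 3 for TIMP3 was called lower there (range -0.79 to -0.07) and 1 of 3 for TIMP1 higher (range -0.18 to 0.24). The TIMP3 probe set brightest in any group read 500.7 and 486.3 in MDA-MB-468 under DMSO and 278.4 and 290.9 at 250 nM. TIMP1 read 915 and 1024 under DMSO, 1135 and 1058 at 50 nM and 1313 and 1302 at 250 nM in ZR-75-1, and 857.5 and 811.5, 949 and 892, and 1050 and 1077 in T47D. The changes at 250 nM were 0.43 ± 0.07 (1.35-fold; adjusted p = 9.16e-05) and 0.35 ± 0.07 (1.27-fold; adjusted p = 0.00102), with no overlap with DMSO. Both calls held under each scaling tried and each array left out, with values of 0.35 to 0.68 and 0.31 to 0.49. In MDA-MB-468 TIMP1 changed by 0.13 and missed the test, and in BT-549 it read 1812, 1573 and 1556.

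TIMP2 changed by 0.25 ± 0.08 in ZR-75-1 (adjusted p = 0.0121) and 0.28 ± 0.08 in T47D (adjusted p = 0.00687). The ZR-75-1 call was lost without DMSO replicate 1 (0.19, adjusted p = 0.101) or 250 nM replicate 2 (0.20, adjusted p = 0.0948), and the T47D call without 250 nM replicate 2 (0.25, adjusted p = 0.0582). In MDA-MB-468 it read 472 and 452 under DMSO and 450 and 451 at 250 nM, and the difference of its change from the mean of the ER+ lines was -0.30 ± 0.09 (adjusted p = 0.0358). TIMP3, which stays bound to the matrix, was called lower in ZR-75-1, from 147 and 145 to 107 and 109 (-0.44 ± 0.15, adjusted p = 0.0226). On that probe set the call was lost when any 1 of the 4 arrays was left out (changes of -0.46 to -0.43), and scaling to equal quantiles gave 0.06. With every probe set fitted, 2 of the 3 for TIMP3 were called lower there at 250 nM (range -1.88 to -0.30) and 1 at 50 nM. The TIMP3 probe set brightest in any group read 118.3 and 114.9 in ZR-75-1 under DMSO, 73.07 and 68.36 at 50 nM and 29.45 and 33.83 at 250 nM.

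Integrins, the receptors themselves, changed little. In MDA-MB-468 none of the 8 passed the test at either dose in limma's fit, nor an unadjusted p of 0.05, with changes at 250 nM from -0.17 (ITGAV) to 0.17 (ITGB4) and no 95% interval beyond -0.42 or 0.50. Of the 8, ITGA5 passed the filter only through BT-549, and read 42.73 and 46.8 in MDA-MB-468 under DMSO, near background. ITGB1, the beta chain shared by most matrix receptors, read 3218 and 3302 under DMSO and 4122 and 3890 at 250 nM in ZR-75-1 (0.30 ± 0.06, adjusted p = 0.000362). In T47D it read 3430 and 3338 and then 4084 and 3620 (0.18 ± 0.06, adjusted p = 0.0171), a call lost without DMSO replicate 2 (0.16) or 250 nM replicate 1 (0.10). The T47D call was also lost with the mean of probe sets (0.11, adjusted p = 0.205), with equal quantiles (0.12, adjusted p = 0.0627) and without trend (adjusted p = 0.0506). With every probe set fitted, 1 of the 4 for ITGB1 was called higher in ZR-75-1 (range 0.10 to 0.30) and 2 in T47D (range 0.07 to 0.43). In BT-549 ITGB1 read 11840, 12180 and 12350.

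The alpha chains moved by line. ITGA2 fell in ZR-75-1 from 241 and 266 to 183 and 188 (-0.45 ± 0.09, adjusted p = 0.000653), with -1.22 on its second probe set, though centring arrays on the median gave -0.20 (adjusted p = 0.12) and scaling to equal quantiles 0.03. ITGA3, a laminin-binding chain, rose in T47D from 90.05 and 87.94 to 106 and 121 (0.34 ± 0.10, adjusted p = 0.0104), a call lost without 250 nM replicate 2 (0.25, adjusted p = 0.115) or DMSO replicate 2 (0.33, adjusted p = 0.0576). ITGA6, the other main laminin-binding chain, changed by 0.06, 0.02 and -0.07, with 95% intervals of -0.17 to 0.28, -0.21 to 0.24 and -0.29 to 0.16. CD44, on the probe set used, changed by 0.21, 0.04 and -0.05, with intervals of -0.05 to 0.47, -0.22 to 0.31 and -0.32 to 0.21. With every probe set fitted, 5 of the 10 for CD44 were called higher in MDA-MB-468 at 250 nM, with changes from 0.16 to 0.44. At 50 nM 5 were called higher there, with changes from -0.10 to 0.48. In ZR-75-1 at 250 nM 1 was called higher and 1 lower, and in T47D none was called.

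Between the doses, 250 against 50 nM, 4 members were lower in MDA-MB-468 (23.2% of all genes), 6 in ZR-75-1 (41.7%) and 2 in T47D (27.2%). In ZR-75-1 these were ADAMTS1, ITGA2, LAMA5, NEDD9, PLAUR and THBS1, so that each member called lower against DMSO at 250 nM there, except TIMP3, was also lower between doses. Those higher were 1, 2 (6.63%) and 5 (4.58%), the 5 in T47D being COL5A1, ITGA3, PLAT, TIMP1 and TIMP2. Leaving out 1 array gave 1 to 4 in T47D, the lowest count without T47D 50 nM replicate 2. These comparisons share the 250 nM arrays with those against DMSO.

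For the change at 250 nM, MDA-MB-468 was lower than the mean of the ER+ lines in 6 members (5.12% of all genes tested) and higher in 0 by limma's test (13.9%), or 1 at an unadjusted p under 0.05. The 6 were ADAMTS1, ADAMTS5, MMP14, NEDD9, PLAU and TIMP2. ADAMTS5 and PLAU lay at or near background in the ER+ lines. Leaving out 1 array reduced the count to as few as 3, without MDA-MB-468 DMSO replicate 2 or 250 nM replicate 2. MMP14 (-0.52 ± 0.17, adjusted p = 0.0451) and TIMP2 each lost the call for 9 of the 12 arrays left out in turn. NEDD9 (-0.93 ± 0.27, adjusted p = 0.0226) lost it without MDA-MB-468 DMSO replicate 2 (adjusted p = 0.113) or either 250 nM array of that line (adjusted p = 0.0624 and 0.0664), with its treated arrays at background. ZR-75-1 was lower than T47D in 4 members (19.8%), ADAMTS1, LAMA5, PLAUR and THBS1, and higher in 0 by the same test and at an unadjusted p under 0.05 (2.44%). Scaling to equal quantiles ended the THBS1 call (-0.25, adjusted p = 0.171), and the LAMA5 call ended with it (-0.25, adjusted p = 0.188), with median centring (-0.31, adjusted p = 0.142) and with the mean of probe sets (-0.28, adjusted p = 0.165). PLAUR (-0.64 ± 0.19, adjusted p = 0.0232) lost the call for 5 of the 8 arrays left out in turn, with values of -0.66 to -0.49.

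Other genes of the matrix were read from 4 further lists. Of 34 other matrix proteins 25 were tested, of which 2, 1 and 1 were lower and 2, 2 and 1 higher at 250 nM in the 3 lines, with list medians of 0.05, 0.08 and 0.09. For this list and those that follow, the shares over all genes tested were 30.3%, 42.8% and 33.7% lower and 9.54%, 9.93% and 9.62% higher. The matricellular protein CCN1, which binds integrins, was lower in all 3: it read 2145 and 2333 under DMSO and 108 and 107 at 250 nM in MDA-MB-468 (-4.38 ± 0.09, adjusted p = 3.30e-14), with -1.36 and -1.46 in ZR-75-1 and T47D, and 4957, 3364 and 817 in BT-549. Its relative CCN2 fell in MDA-MB-468 from 2185 and 2191 to 247 and 226 (-3.21 ± 0.23, adjusted p = 1.00e-08). In BT-549 CCN2 read 4508, 2489 and 4777, lowest at 50 nM.

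Of 13 collagen processing and crosslinking enzymes, 12 were tested, with 0, 1 and 0 lower by limma's test (0, 2 and 0 at an unadjusted p under 0.05), 1, 1 and 2 higher and list medians of 0.04, 0.10 and 0.08. LOXL3, a lysyl oxidase relative, fell in ZR-75-1 (-0.70 ± 0.17, adjusted p = 0.00209). Of 27 other proteases and inhibitors 20 were tested, with 1, 2 and 0 lower by the test (2 in T47D at an unadjusted p under 0.05), 3, 6 and 6 higher and list medians of 0.06, 0.04 and 0.19. The metalloprotease ADAM15 rose at 250 nM in all 3 lines, by 0.26, 0.44 and 0.38 (adjusted p = 0.00318, 1.70e-05 and 0.000112), and ADAMTS9 fell in ZR-75-1 from 245 and 242 to 130 and 124. Of 13 other integrin chains only 6 were tested, with 1, 0 and 0 lower and 1, 1 and 0 higher by limma's test (the same at an unadjusted p under 0.05). ITGB8, which activates latent TGF-beta, fell in MDA-MB-468 from 622 and 709 to 361 and 413 (-0.78 ± 0.23, adjusted p = 0.0134). ITGAE rose in MDA-MB-468 (0.26 ± 0.06, adjusted p = 0.00172) and ZR-75-1 (0.21 ± 0.06, adjusted p = 0.00643). The list medians were -0.14, -0.01 and 0.08. In BT-549 ITGB8 read 162, 63.7 and 84.8.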

How the data were processed

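The deposited value table holds intensities of 49395 probe sets on 21 arrays, made by the authors with MAS5 per the submitters' processing notes; how arrays were scaled to one another is not given in the sources here. The same mass of RNA was labelled from each sample, per the labels' protocols, so a change in RNA per cell is not measured. Values under 1 were set to 1 and taken to log2 without rescaling. A gene was read from its probe set with the highest mean, among those the platform annotation gives 1 symbol, and tested where at least 1 group averaged 57.4 or more, the median over all values. LAMA3 was not analysed here.

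Group means of the 18 replicated arrays were fitted together with limma 3.58.1 (lmFit, eBayes with trend) in R 4.3.3, with Benjamini-Hochberg adjustment within each comparison over 12644 genes. The scripts were tested on simulated data. Background was read from the platform's 23 background probe sets. Where no treated array exceeded it, a fold is a bound against the mean background of those arrays. The number of arrays limits the precision.

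Members and lists were chosen with earlier results of these data known. Array values were to be given for members called with at least a 2-fold change at 250 nM, and up to 3 genes per related list with the largest called change; those of PLAUR, PLAT, MMP14, FN1, LAMA5, the TIMPs, the integrins, CD44 and the DMSO and BT-549 levels were chosen after their values were seen. Alternatives covered scaling, filter, floor, probe sets, trend, lines in the fit, a replicate block and each array left out. The 75th percentile of background and the probe set brightest in any group were chosen after seeing the data. Promoters are from RefSeq.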

Additional observations from a re-analysis of the deposited data

Results flagged for a closer look

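Differences between lines in the change at 250 nM were tested as contrasts of the changes in limma's fit, with p-values adjusted over all genes, and 10 of them passed for these genes. MDA-MB-468 was more negative than the mean of the ER+ lines for ADAMTS1 (-2.82 ± 0.18 SE, adjusted p = 8.24e-08), ADAMTS5 (-1.23 ± 0.29, adjusted p = 0.00789), PLAU (-1.22 ± 0.18, adjusted p = 0.000265), NEDD9 (-0.93 ± 0.27, adjusted p = 0.0226), MMP14 (-0.52 ± 0.17, adjusted p = 0.0451) and TIMP2 (-0.30 ± 0.09, adjusted p = 0.0358). For NEDD9 the 250 nM arrays lay at background in all 3 lines, so the size of the difference is uncertain. For ADAMTS5 the ER+ lines lay at background under DMSO, and for PLAU below its 75th percentile. ZR-75-1 was more negative than T47D for ADAMTS1 (-1.81 ± 0.20, adjusted p = 1.08e-05), THBS1 (-0.69 ± 0.14, adjusted p = 0.00229), PLAUR (-0.64 ± 0.19, adjusted p = 0.0232) and LAMA5 (-0.44 ± 0.11, adjusted p = 0.0104). The THBS1 difference missed the test with arrays scaled to equal quantiles, and the PLAUR and LAMA5 differences did so with that scaling, with median centring and with the mean of probe sets.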

How the results depend on the processing

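Of 60 member calls against DMSO, between doses and between lines in the change at 250 nM, 32 held under every alternative run and with each array left out; of the 30 against DMSO, 20 did. Counts of members lower against DMSO in MDA-MB-468 and T47D stayed within 1.5 times throughout, and in ZR-75-1 they did not. Scaling moved the members higher most. Against DMSO at 250 nM, median centring gave 8, 12 and 11 higher, equal quantiles 6, 17 and 14, and both gave 4 lower in ZR-75-1. At 50 nM median centring gave 2 higher in MDA-MB-468. For 250 against 50 nM, median centring gave 8 higher in ZR-75-1, and equal quantiles 4, 10 and 11. For the change in ZR-75-1 minus T47D they gave 2 and 1 lower. The mean of probe sets gave 2 higher at 50 nM in each line, 2 lower at 50 nM in ZR-75-1 and 2 higher at 250 nM in MDA-MB-468. For 250 against 50 nM it gave 2, 1 and 1 higher and 1 lower in T47D, for MDA-MB-468 minus the ER+ mean 1 higher, and for DMSO ZR-75-1 minus T47D 6 lower. With only the lines compared, MDA-MB-468 had 1 higher at 50 nM, 2 at 250 nM and 2 between doses, and ZR-75-1 had 0 lower at 50 nM in limma's fit; the brightest-group probe sets gave 2 there. Between doses, a floor of 16 or no trend left 0 higher in MDA-MB-468, and no filter left 2 in T47D. Signs turned for ITGA2 in ZR-75-1 (0.03 against DMSO and 0.02 between doses, equal quantiles), TIMP3 (0.06) and LAMA5 (0.18, and 0.26 with the mean of probe sets) there, THBS1 in T47D (0.00, mean of probe sets) and PLAT in T47D (-0.08 and -0.25, brightest-group probe set). The causes were not tested. Above background by the mean plus 2 SD lay 7, 4, 5 and, in BT-549, 19 members.

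Leaving out arrays in turn gave, as lower and higher against DMSO at 50 nM, 5 to 6 and 0 to 1 in MDA-MB-468, 0 to 2 and 0 to 2 in ZR-75-1, and 1 and 0 in T47D. At 250 nM it gave 6 and 0 to 1, 5 to 6 and 3 to 4, and 2 to 3 and 3 to 6. Between doses it gave 3 and 0 to 1, 6 to 8 and 1 to 2, and 1 to 2 and 1 to 4. For the changes compared between lines it gave 3 to 6 and 0 (MDA-MB-468) and 3 to 5 and 0 (ZR-75-1), and under DMSO 5 to 6 and 17 to 18, 7 and 16 to 17, and 8 to 9 and 6 to 7. A group left with 1 array was assumed to vary like the others. Replicate numbers showed no steady pairing of the arrays (correlations of deviations -0.22 to 0.291), which cannot settle whether arrays were paired. With the replicate block 56 of the 60 calls held, and MDA-MB-468 had 1 member higher at 250 nM. Signal over background limits falls of dim genes, NEDD9 above all.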
